A study of Mus musculus with 18 samples.

Results

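The comparison described here sets CD103+CD11b- cells against CD103+CD11b+ cells sorted from the colon of mice with dextran sulfate sodium (DSS) colitis. It rests on 6 of the 18 arrays of the series, chosen by their titles: 3 arrays of DSS CD103+CD11b- cells and 3 of DSS CD103+CD11b+ cells, from experiments 4, 5 and 6. All mice were BALB/c and 8 weeks old, and no genetic change is named for any group. Colitis was induced with 2% DSS, which damages the epithelial lining. Lamina propria cells were freed with collagenase, gated as MHC+CD11chigh and divided by the 2 surface proteins. Each experiment also gave an array of CD103-CD11b+ cells, and experiments 1 to 3 gave the same 3 subsets from untreated mice. From each sample 5 ng of total RNA was amplified, and 5.5 ug of single-stranded DNA was labelled with biotin. Neither the number of mice pooled for an array nor the use of separate animals per experiment is given in the labels, so p-values measure only the spread between these samples, which may be technical. The precision is limited by the number of arrays.

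CD103 and CD11b are integrin subunits, encoded by Itgae and Itgam. Conventional dendritic cells of the intestine fall into a type 1 lineage (cDC1), which depends on the transcription factors IRF8 and BATF3 and is known for taking up dead cells and presenting their antigens to CD8 T cells. The type 2 lineage (cDC2) depends on IRF4 and is known for priming CD4 T cells and for sensing microbes through lectins. In the colon, CD103+CD11b- cells are usually counted as cDC1 and CD103+CD11b+ cells as cDC2, while CD103-CD11b+ cells may include both cDC2 and cells derived from monocytes.

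CD103+CD11b- cells had higher levels of cDC1 genes and lower levels of cDC2 surface receptors, several C-type lectins and paired receptors of myeloid cells. All values are log2 expression, and a difference is CD103+CD11b- minus CD103+CD11b+, with limma's standard error (SE). Of 14003 genes tested, 834 (5.96%) passed an adjusted p of 0.05, which is what called means here. Among them 499 (3.56%) were higher in CD103+CD11b- cells, with a median difference of 0.80, and 335 (2.39%) were lower, with a median of -0.86. The median over all genes was 0.00. A difference of at least 1 on the log2 scale was reached by 162 of the higher and 127 of the lower genes, and a difference of at least 2 by 22 and 14. The sign was the same in all 3 experiments for each of the 834 called genes. They were called on these same arrays, so this is no separate support. The share of all genes tested with the same sign in all 3 experiments was not computed. The 3 values of one group lay above the 3 of the other for 832 of the 834, which by itself fixes the sign in each experiment. Such groups that do not overlap made up 22.8% of all genes tested, 12.4% on the higher and 10.4% on the lower side. Arrays of the 2 groups correlated at 0.973 to 0.979 over all probe sets, a description since probe sets are no replicates, against 0.980 within CD103+CD11b- cells and 0.981 to 0.982 within CD103+CD11b+ cells. In bulk samples such as these, fewer cells of a type and less RNA per cell cannot be told apart.

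**Figure D1:**
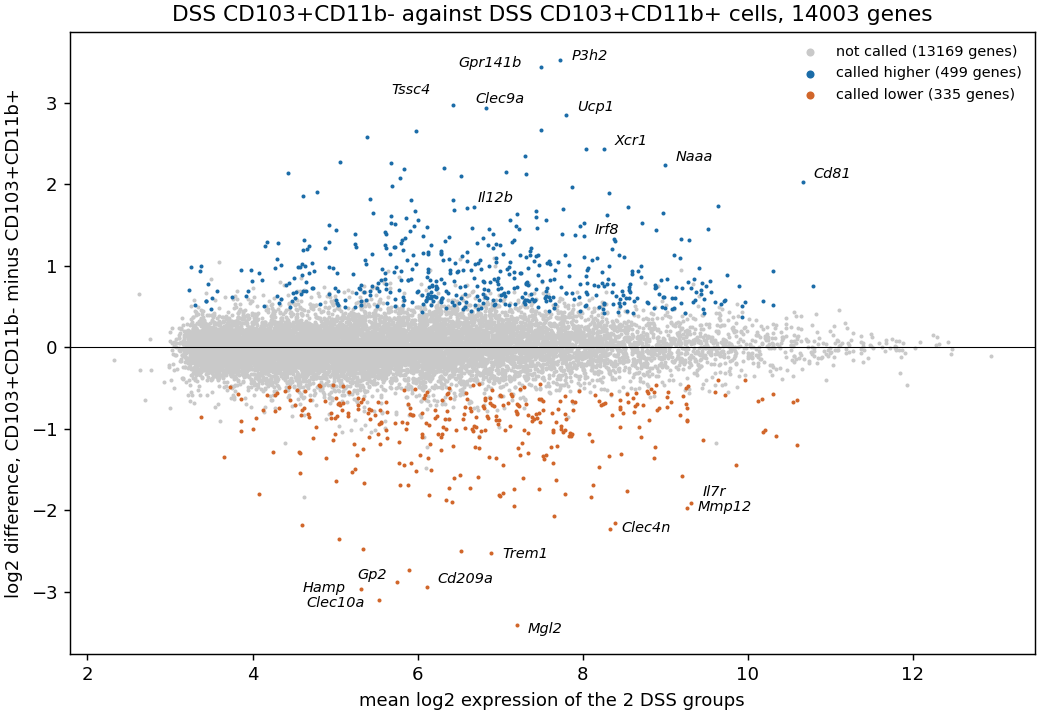
Each point is 1 of 14003 genes, with its mean log2 expression over the 2 DSS groups on the x axis and its log2 difference, CD103+CD11b- minus CD103+CD11b+, on the y axis. The 499 genes called higher are blue and the 335 called lower are orange, and P3h2 at 3.52 and Mgl2 at -3.41 mark the ends.

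The genes of the sort proteins followed the labels. In the order of experiments 4, 5 and 6, which holds for all triplets of values here, Itgam measured 6.12, 6.13 and 6.13 in CD103+CD11b- cells and 7.10, 7.35 and 7.64 in CD103+CD11b+ cells, a difference of -1.24 ± 0.20 (adjusted p = 0.000502). The groups do not overlap. Itgae measured 9.59, 9.58 and 9.66 against 8.85, 9.08 and 9.24, so that its level was also higher in the CD11b- population, by 0.55 ± 0.13 (adjusted p = 0.0142). That call was lost without replicate 6 of the CD103+CD11b- cells (adjusted p = 0.0595) or replicate 4 of the CD103+CD11b+ cells (0.101). Itgax, which encodes CD11c and was part of the gate for both, differed by -0.26 ± 0.16 (adjusted p = 0.53).

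The surface receptors of cDC1 were the group of genes that stood highest in CD103+CD11b- cells. Of 16 tested, 13 were called higher and 0 lower, with a median difference of 1.14. Their mean level per array ran from 7.88 to 8.00 in CD103+CD11b- cells and from 6.30 to 6.49 in CD103+CD11b+ cells. Clec9a, the receptor for actin exposed on dead cells, measured 8.33, 8.40 and 8.16 against 5.00, 5.66 and 5.43, a 7.63-fold difference (2.93 ± 0.26 on the log2 scale, adjusted p = 5.98e-07). Xcr1, the receptor for the chemokine XCL1 that CD8 T cells and NK cells release, measured 9.46, 9.42 and 9.55 against 6.68, 7.14 and 7.31, a 5.41-fold difference (2.43 ± 0.21, adjusted p = 3.34e-07). For both genes the lowest CD103+CD11b- array lay more than 2 log2 units above the highest CD103+CD11b+ array. Cadm1, an adhesion molecule that binds CRTAM on T cells, measured 8.62, 8.49 and 8.33 against 6.19, 6.36 and 5.84 (2.35 ± 0.24). Other receptors of the list were the orphan receptors Gpr141b at 3.44 ± 0.22 and Gpr33 at 2.67 ± 0.29, the integrin alpha chain Itga1 at 1.68 ± 0.23 and the inhibitory receptor Btla at 1.14 ± 0.16. Gcsam, a signalling adaptor first described in germinal centre B cells, differed by 2.66 ± 0.21.

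Members with small differences were close to the threshold. The endocytic receptor Ly75, known as DEC-205, measured 9.90, 9.54 and 9.67 against 9.18, 8.97 and 8.94 (0.67 ± 0.16, adjusted p = 0.0119). Leaving out replicate 4 of the CD103+CD11b- cells, or replicate 5 or 6 of the CD103+CD11b+ cells, moved its adjusted p to 0.0818, 0.0508 and 0.0603. Tlr3, the endosomal sensor of double-stranded RNA, measured 4.85, 4.72 and 4.90 against 4.36, 4.20 and 4.08 (0.61 ± 0.17, adjusted p = 0.0374). Leaving out any 1 of the 6 arrays ended that call, with adjusted p from 0.052 to 0.15, although its groups do not overlap.

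**Figure D2:**
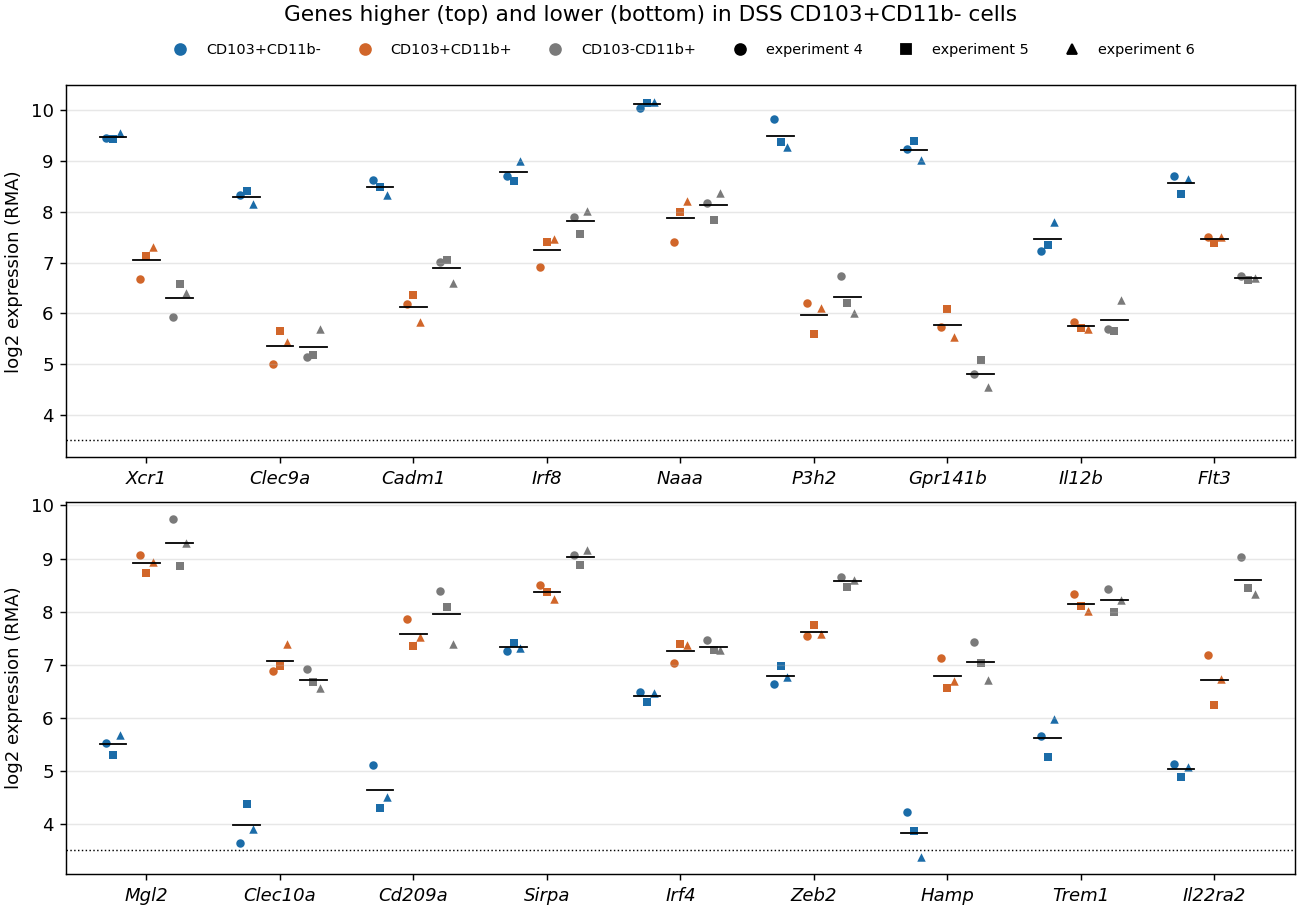
Log2 expression in each of the 9 DSS arrays for 9 genes higher (top) and 9 lower (bottom) in CD103+CD11b- cells; colours give the subset, symbols the experiment, bars the group mean, and the dotted line the filter level of 3.51. For each of the 18 genes the blue points lie clear of the orange ones, and the mean of the grey CD103-CD11b+ points is nearer to the orange mean than to the blue.

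Among the transcription factors and cytoplasmic genes of cDC1, 12 of 22 tested were called higher and 0 lower, with a median difference of 0.62. Irf8, the lineage factor, measured 8.71, 8.61 and 9.01 against 6.90, 7.40 and 7.46, a 2.87-fold difference (1.52 ± 0.18, adjusted p = 1.87e-05). Its partner Batf3 measured 6.96, 6.95 and 6.34 against 6.46, 6.39 and 6.39. The 2 groups of Batf3 values overlap because of the CD103+CD11b- array of experiment 6, and its difference of 0.34 ± 0.17 was not called (adjusted p = 0.352). Naaa, a lysosomal amidase of lipid amides, measured 10.03, 10.15 and 10.16 against 7.42, 7.99 and 8.21 (2.24 ± 0.21). Rab7b, a GTPase of late endosomes, differed by 2.26 ± 0.25, the kinase Lrrk2 by 1.89 ± 0.13, the lysosomal thioesterase Ppt1 by 1.74 ± 0.23 and the lipid phosphatase Plpp1 by 1.65 ± 0.16. Wdfy4, which cDC1 need for cross-presentation, differed by 0.48 ± 0.14 (adjusted p = 0.0453), with groups that do not overlap. Its call was lost with any 1 of the 6 arrays left out (adjusted p from 0.0561 to 0.205). With the 6 arrays fitted alone the adjusted p was 0.0583, or 0.0532 with the replicate block, and it was 0.0899 after a further quantile normalization.

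Promoters of the genes at both ends of the comparison were searched for the letters bound by IRF factors. IRF dimers bind GAAANNGAAA, and IRF8 or IRF4 binds GGAANNGAAA together with an ETS factor. Of the 40 named genes with the largest differences, 35 had an entry among the RefSeq promoters (GRCm38.p6), and 4 held at least 1 of these 2 motifs in the 250 bases before the start. They are shown because IRF8 and IRF4 are among the transcription factors whose genes differ between the 2 cell types. The first pair are genes higher and the second pair genes lower in CD103+CD11b- cells. Capitals mark each match on either strand, no 2 of the marked matches overlap, and the sequence reads 5′ to 3′ towards the gene, which lies on the minus strand in all 4 cases.
Gpr141b (chr13:19732952-19733201): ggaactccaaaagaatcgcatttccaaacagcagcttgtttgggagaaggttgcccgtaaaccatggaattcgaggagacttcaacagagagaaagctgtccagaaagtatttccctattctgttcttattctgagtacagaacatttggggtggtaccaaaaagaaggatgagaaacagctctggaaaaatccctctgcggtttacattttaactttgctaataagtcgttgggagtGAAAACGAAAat
Gpr33 (chr12:52028064-52028313): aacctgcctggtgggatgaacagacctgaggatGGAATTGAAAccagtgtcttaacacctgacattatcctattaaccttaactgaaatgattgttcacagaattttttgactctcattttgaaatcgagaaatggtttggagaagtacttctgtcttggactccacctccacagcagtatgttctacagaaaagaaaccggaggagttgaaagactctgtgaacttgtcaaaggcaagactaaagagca
Ifitm6 (chr7:141016893-141017142): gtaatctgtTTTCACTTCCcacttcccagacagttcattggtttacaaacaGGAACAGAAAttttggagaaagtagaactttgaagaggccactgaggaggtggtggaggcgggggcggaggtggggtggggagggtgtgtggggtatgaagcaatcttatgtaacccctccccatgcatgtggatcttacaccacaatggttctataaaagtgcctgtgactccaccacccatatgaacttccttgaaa
Pilra (chr5:137836279-137836528): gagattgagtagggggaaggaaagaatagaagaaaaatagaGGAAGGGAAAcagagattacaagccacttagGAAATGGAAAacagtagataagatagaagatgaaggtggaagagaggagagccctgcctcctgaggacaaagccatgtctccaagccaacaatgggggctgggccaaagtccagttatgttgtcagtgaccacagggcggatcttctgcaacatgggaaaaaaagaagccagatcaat

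In Gpr141b the match begins 12 bases before the start, in Gpr33 217 bases before it. The 2 matches of Ifitm6 begin 241 and 199 bases before the start, and those of Pilra 209 and 178 bases. GAAANNGAAA was held by 3.41% of the 411 promoters of genes called higher, 3.85% of the 260 of genes called lower and 2.67% of the 11082 of all genes tested, or 3.04% of all 27025 entries. For GGAANNGAAA the shares were 3.65%, 2.69%, 2.10% and 2.38%. TGANTCA, the letters bound by AP-1 and by BATF dimers, was held by 5.11%, 5.00%, 4.87% and 6.87%. A match is a run of letters and not a measured binding site.

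The surface receptors of cDC2 went the other way. Of 23 tested, 13 were called lower in CD103+CD11b- cells and 1 higher, with a median difference of -0.77. The list's mean level per array ran from 5.60 to 5.63 in CD103+CD11b- cells and from 6.52 to 6.65 in CD103+CD11b+ cells. Mgl2, a lectin for galactose and N-acetylgalactosamine, measured 5.52, 5.30 and 5.68 against 9.07, 8.73 and 8.94, a 10.6-fold difference (-3.41 ± 0.21, adjusted p = 2.31e-08). Its relative Clec10a measured 3.65, 4.38 and 3.91 against 6.88, 6.97 and 7.39 (-3.10 ± 0.25). Cd209a, the mouse relative of DC-SIGN, measured 5.11, 4.30 and 4.50 against 7.86, 7.36 and 7.52 (-2.94 ± 0.24). For these 3 lectins the gap between the groups was several times the spread within either. Cd209c differed by -2.18 ± 0.24 and Cd209b by -1.28 ± 0.19. Mgl2 and Clec10a are related neighbouring genes, as are Cd209b and Cd209c. Probes could be shared within each pair, so their values may not be separate measurements. Sirpa, the receptor for the do-not-eat-me signal CD47, measured 7.26, 7.41 and 7.31 against 8.51, 8.37 and 8.23 (-1.04 ± 0.14, adjusted p = 7.26e-05). Other members were the inhibitory receptor Cd300a at -1.84 ± 0.15, Cd7 at -1.51 ± 0.23 and the interleukin 1 decoy receptor Il1r2 at -1.20 ± 0.13. The member that went against the list was Clec12a, a lectin for uric acid crystals, at 1.72 ± 0.22; cDC1 are known to carry it as well.

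Transcription factors of cDC2 were divided, with 3 of 19 tested called lower, 3 called higher and a median difference of -0.10. Irf4 measured 6.49, 6.30 and 6.47 against 7.04, 7.39 and 7.37 (-0.84 ± 0.16, adjusted p = 0.00177). Zeb2, a repressor that acts against the cDC1 fate, measured 6.64, 6.98 and 6.77 against 7.54, 7.74 and 7.57 (-0.82 ± 0.17, adjusted p = 0.00376). Both factors kept their groups apart in every experiment. Klf4, which some cDC2 need, measured 8.08, 7.40 and 7.64 against 7.42, 7.84 and 7.69, with groups that overlap (0.06 ± 0.18, adjusted p = 0.948). Higher in CD103+CD11b- cells were Runx1 at 0.74 ± 0.13 and Rbpj, the nuclear partner of Notch, at 0.60 ± 0.13.

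Of genes shared by all dendritic cells, 6 of 18 tested were called higher and 0 lower, with a median difference of 0.03. Flt3, the receptor for the growth factor that maintains dendritic cells, measured 8.71, 8.35 and 8.65 against 7.50, 7.39 and 7.50 (1.11 ± 0.17, adjusted p = 0.000213). The metalloprotease Adam19 differed by 1.64 ± 0.15, the adhesion molecule Jaml by 1.39 ± 0.19 and the peptidase Dpp4 by 0.63 ± 0.14. The lineage factor Zbtb46 differed by -0.16 ± 0.15 (adjusted p = 0.753), and the class II gene H2-Ab1 by -0.01 ± 0.14 (adjusted p = 0.988).

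**Figure D3:**
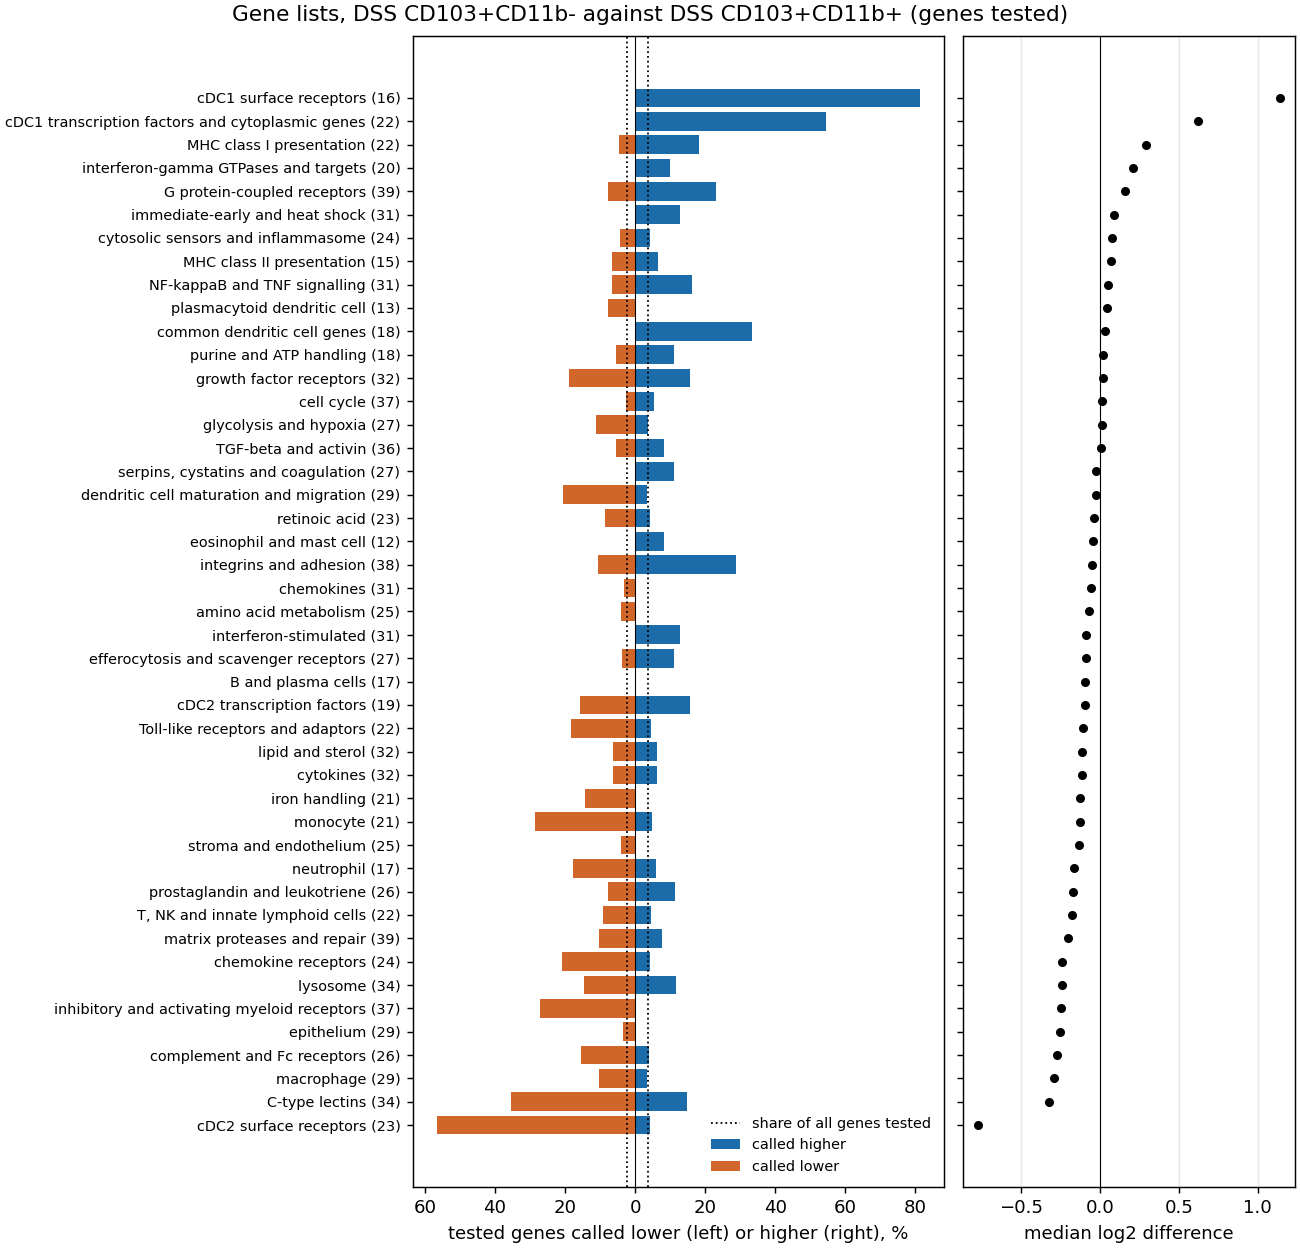
For each gene list, bars show the percentage of its tested genes called lower (orange, to the left) and higher (blue, to the right) in CD103+CD11b- cells, with the number tested in brackets, and dots show the median log2 difference; dotted lines mark the shares of all genes tested, 2.39% and 3.56%. Surface receptors of cDC1 lie at the top with a median of 1.14 and those of cDC2 at the bottom with -0.77; the erythroid list, with 3 tested genes, is not drawn.

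Among cytokines 2 of 32 tested genes were called higher and 2 lower, with a median difference of -0.12. Il12b, the p40 subunit of interleukins 12 and 23, measured 7.22, 7.35 and 7.80 against 5.83, 5.71 and 5.70, a 3.28-fold difference (1.71 ± 0.25, adjusted p = 0.000153). Il15, which sustains CD8 T cells and NK cells, measured 7.27, 6.70 and 6.37 against 4.79, 5.16 and 5.72 (1.56 ± 0.27, adjusted p = 0.000753). The gap in Il15 between cells of the same experiment was 2.49, 1.54 and 0.65, so experiment 6 had the smallest. Lower in CD103+CD11b- cells were Il22ra2 and Il1rn, which encode soluble antagonists of interleukin 22 and interleukin 1. Il22ra2 measured 5.14, 4.90 and 5.08 against 7.19, 6.24 and 6.74 (-1.69 ± 0.25, adjusted p = 0.000149). Il1rn measured 7.90, 8.04 and 7.95 against 9.15, 8.83 and 8.85 (-0.98 ± 0.14, adjusted p = 9.81e-05). Of 31 chemokine genes, 1 was called lower and 0 higher, with a median of -0.06; with 1 array left out the count was 0 to 2.

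Of 24 chemokine receptors tested, 5 were called lower and 1 higher, with a median difference of -0.24. The higher one was Xcr1. Ccr1, a receptor for inflammatory chemokines, measured 5.80, 6.33 and 6.31 against 7.78, 7.83 and 8.17 (-1.78 ± 0.27, adjusted p = 0.000195). Gpr183, which follows oxysterols and positions dendritic cells in lymphoid tissue, measured 8.28, 8.23 and 7.97 against 9.39, 9.18 and 9.19 (-1.09 ± 0.12, adjusted p = 6.29e-06). The groups of both genes are well apart. Ccr6, the receptor for CCL20, differed by -0.87 ± 0.18, Cxcr5 by -0.83 ± 0.16 and the atypical receptor Ccrl2 by -0.67 ± 0.14. Ccr9, a gut-homing receptor, measured 5.66, 5.21 and 5.56 against 5.69, 6.54 and 6.68 and was not called (-0.83 ± 0.26, adjusted p = 0.067). It was called with the experiment number as a block (adjusted p = 0.0411) and without replicate 4 of the CD103+CD11b+ cells (adjusted p = 0.00864).

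Receptors for cytokines and growth factors split, with 5 of 32 tested called higher and 6 lower (median 0.02). With 1 array left out, 6 to 9 of the 32 were called. Those lower included the interleukin receptor genes Il7r, Il2ra, Il18rap and Il1r2. Il7r measured 8.82, 8.24 and 8.03 against 10.43, 10.21 and 10.18 (-1.91 ± 0.18), and Il2ra, known as CD25, measured 6.86, 6.95 and 6.85 against 9.03, 8.60 and 8.42 (-1.80 ± 0.20). The accessory chain of the interleukin 18 receptor, Il18rap, differed by -1.42 ± 0.27, and the TNF receptor Tnfrsf1b by -0.72 ± 0.13. Flt3 was the member with the largest difference in the other direction.

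Among C-type lectins 12 of 34 tested were called lower and 5 higher, with a median of -0.32. Beside those already named, Clec4n, known as dectin-2, measured 7.24, 7.14 and 7.28 against 9.74, 9.22 and 9.37 (-2.22 ± 0.19), and Clec4a1 differed by -1.44 ± 0.29. The higher lectins were Clec9a, Cd207, Clec12a, Clec1a and Ly75. Cd207, the langerin of Langerhans cells, measured 9.78, 8.91 and 9.10 against 7.37, 6.73 and 6.38 (2.43 ± 0.30), and Clec1a differed by 1.19 ± 0.23. Of 22 Toll-like receptors and adaptors, 4 were called lower and 1, Tlr3, higher (median -0.11). None of these 5 calls held with each array left out in turn, and the count then fell between 0 and 4. Tlr1, which acts with TLR2 on lipopeptides, had the largest difference among them, -1.09 ± 0.25 (adjusted p = 0.00891), and reached 0.0513 without replicate 5 of the CD103+CD11b- cells.

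Inhibitory and activating receptors of myeloid cells were called lower in 10 cases of 37 and higher in 0, with a median of -0.25. Trem1, which amplifies inflammatory signals, measured 5.65, 5.26 and 5.98 against 8.34, 8.11 and 8.01, a 5.75-fold difference (-2.52 ± 0.24, adjusted p = 1.06e-06). The inhibitory receptor Pilra and its activating relatives Pilrb1 and Pilrb2 were all lower. They differed by -1.87 ± 0.32, -1.73 ± 0.28 and -1.53 ± 0.21. They are related neighbouring genes, and probes could be shared between them, so their values may not be separate measurements. The sialic acid lectins Siglecg and Siglece differed by -1.90 ± 0.23 and -1.29 ± 0.23. Among complement genes and Fc receptors, 4 of 26 tested were called lower and 1 higher, a count of 5 that fell to 2 or 3 with 1 array left out. Properdin, encoded by Cfp, measured 6.74, 7.23 and 6.56 against 8.06, 8.43 and 8.15 (-1.38 ± 0.21, adjusted p = 0.000176). In the inflammasome and cytosolic sensor list Mefv, which encodes pyrin, was lower by the largest amount, at -1.74 ± 0.17.

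Genes of antigen presentation on MHC class I were called higher in 4 of 22 cases and lower in 1, with a median of 0.29; with 1 array left out, 3 or 4 of the 22 were called. Both chains of the peptide transporter were among them. Tap1 measured 8.86, 9.02 and 9.12 against 7.63, 7.97 and 8.00 (1.13 ± 0.17, adjusted p = 0.000181), and Tap2 measured 7.45, 7.29 and 7.67 against 6.18, 6.56 and 6.51 (1.05 ± 0.17, adjusted p = 0.000345). The groups do not overlap for either. The member called lower was Cybb, the catalytic subunit of the phagocyte NADPH oxidase that governs the pH of the phagosome, at -1.15 ± 0.16. Class II genes gave 1 higher and 1 lower call of 15, with a median of 0.07, and 0 or 1 call with 1 array left out. Of interferon-stimulated genes, 4 of 31 were called higher and 0 lower, yet the list's median was -0.08. Slfn5 differed by 1.20 ± 0.25 and Mx1 by 0.91 ± 0.14. Their count of 4 was 2 or 3 with 1 array left out and up to 11 under the other settings. Gbp5, an interferon-gamma-induced GTPase, differed by 1.16 ± 0.21, and 2 of 20 genes of that list were called higher and 0 lower (2 to 4 calls with 1 array left out).

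Integrins and adhesion molecules had 11 of 38 tested genes called higher and 4 lower, with a median of -0.05. Besides Itga1 and Cadm1, the laminin-binding chain Itga3 measured 8.31, 7.76 and 7.99 against 6.31, 6.44 and 6.39 (1.64 ± 0.15, adjusted p = 7.03e-07). Itgal, the alpha chain of LFA-1, measured 7.67, 7.07 and 7.43 against 5.73, 5.94 and 6.10 (1.47 ± 0.18, adjusted p = 2.88e-05). The common beta chain Itgb1 differed by 0.83 ± 0.14. The tetraspanin Cd81 measured 11.90, 11.64 and 11.50 against 9.39, 9.95 and 9.61 (2.03 ± 0.19). Lower in CD103+CD11b- cells were Itgam, E-cadherin (Cdh1) at -1.09 ± 0.17, the catenin Ctnnd2 at -0.94 ± 0.18 and Alcam, a ligand of CD6 on T cells, at -0.67 ± 0.14. Itgam encodes CD11b, by which the cells were sorted, so its place among them is no separate result.

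Matrix proteases and repair genes were called higher in 3 and lower in 4 cases of 39, with a median of -0.20. P3h2, a prolyl hydroxylase of collagen, was the gene with the largest difference of all: it measured 9.82, 9.36 and 9.28 against 6.20, 5.60 and 6.11, an 11.5-fold difference (3.52 ± 0.31, adjusted p = 3.82e-07). The metalloprotease Adam8 differed by 1.31 ± 0.18. In the opposite direction, the macrophage elastase Mmp12 measured 8.65, 8.09 and 8.09 against 10.47, 10.17 and 10.09 (-1.97 ± 0.18), and Mmp19 differed by -1.44 ± 0.17. A pair of growth factors for epithelium and vessels were lower as well, Nrg1 at -1.35 ± 0.19 and Vegfa at -0.80 ± 0.12. In the TGF-beta list, with 3 of 36 called higher and 2 lower (2 to 4 calls with 1 array left out), Tgfbi measured 9.99, 9.77 and 9.79 against 8.10, 8.85 and 8.64 (1.33 ± 0.15), and the receptor Acvrl1 differed by 0.93 ± 0.15. Mfge8, a bridge between dead cells and phagocytes, measured 7.25, 7.20 and 7.51 against 9.76, 9.49 and 9.16 (-2.15 ± 0.16, adjusted p = 1.09e-07). The scavenger receptors Scarb2 and Scarb1 were higher, at 0.94 ± 0.17 and 0.67 ± 0.14.

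In lipid mediator pathways, 3 of 26 tested genes were called higher and 2 lower. Ptgs2, the inducible cyclooxygenase, measured 9.77, 9.77 and 9.56 against 10.67, 10.77 and 10.70 (-1.02 ± 0.14, adjusted p = 9.6e-05). Lta4h, which makes leukotriene B4, measured 5.30, 5.61 and 5.44 against 6.65, 6.73 and 7.04 (-1.36 ± 0.16). The prostaglandin E receptor Ptger2 went the other way, at 1.51 ± 0.20. Thus the enzyme and this receptor of the prostaglandin pathway were called in opposite directions. In the retinoic acid list, with 1 of 23 called higher and 2 lower, the receptor Rara differed by 0.73 ± 0.15 and the retinal reductase Dhrs3 by -1.21 ± 0.15. Hamp, the iron hormone hepcidin, measured 4.23, 3.88 and 3.38 against 7.12, 6.57 and 6.69, a 7.79-fold difference (-2.96 ± 0.38, adjusted p = 3.39e-05). It was 1 of 3 iron genes called lower among 21, with 0 higher. With any 1 array left out, 2 of the 21 were called.

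Lysosomal genes were called in both directions, 4 of 34 higher and 5 lower (median -0.24). The sphingolipid activator Psap differed by 0.75 ± 0.13 and the cholesterol carrier Npc2 by 0.79 ± 0.12. The proteases Ctsa, Ctsc, Ctsz and Tpp1 were lower, between -0.66 ± 0.12 for Ctsz and -0.86 ± 0.17 for Tpp1. In the G protein-coupled receptor list 9 of 39 were higher and 3 lower (median 0.16); the nucleotide receptors P2ry14 and P2ry6 were higher by 1.31 ± 0.14 and 0.94 ± 0.16, and the lysophospholipid receptor Lpar6 by 1.62 ± 0.21. S1pr3, a receptor for sphingosine 1-phosphate, was lower (-0.78 ± 0.20, adjusted p = 0.0195), and this call was lost without replicate 5 or 6 of the CD103+CD11b- cells (adjusted p = 0.105 and 0.11) and without replicate 5 or 6 of the CD103+CD11b+ cells (0.0533 and 0.101). Of lipid and metabolic genes, the mitochondrial uncoupler Ucp1 differed by 2.85 ± 0.27 (adjusted p = 1.1e-06), with 8.91 the lowest CD103+CD11b- value and 7.03 the highest CD103+CD11b+ value. Idi1 of the sterol pathway differed by -1.33 ± 0.14, the fatty acid carrier Fabp5 by -0.97 ± 0.15 and the tryptophan-degrading enzyme Kynu by -1.17 ± 0.17.

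Genes of dendritic cell maturation and migration were called lower in 6 of 29 cases and higher in 1, with a median of -0.03. Tnfsf4, the OX40 ligand, measured 4.55, 4.47 and 4.54 against 6.37, 6.14 and 6.04 (-1.66 ± 0.27, adjusted p = 0.000493). The suppressor of cytokine signalling Socs2 differed by -1.35 ± 0.20, Mreg by -1.32 ± 0.19 and the actin bundler Fscn1 by -0.97 ± 0.19. The immediate-early list had 4 of 31 genes higher and 0 lower (median 0.09): Dusp2 differed by 0.92 ± 0.18, Klf2 by 0.80 ± 0.14, Atf3 by 0.75 ± 0.14 and Nr4a2 by 0.66 ± 0.12. In the NF-kappaB and TNF list, with 5 of 31 higher and 2 lower (4 to 6 calls with 1 array left out), the ubiquitin-binding inhibitors Tnip1 and Tnip3 were opposed: Tnip1 differed by 0.90 ± 0.14 and Tnip3 by -1.31 ± 0.24. Cell cycle genes gave 2 higher and 1 lower call of 37, with a median of 0.02 and 1 to 3 calls with 1 array left out.

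Several of the largest differences belonged to genes outside these lists. Tssc4 measured 8.10, 7.93 and 7.72 against 4.61, 5.44 and 4.75 (2.98 ± 0.24), and Mab21l3 differed by 2.58 ± 0.19. Tifab, a regulator of TRAF6 signalling, differed by 2.27 ± 0.23, the mannose 6-phosphate receptor Igf2r by 2.11 ± 0.17 and the acyltransferase Agpat3 by 2.16 ± 0.14. The phosphatase gene Ppef2 averaged under the filter level of 3.51 in CD103+CD11b+ cells, so its difference of 2.14 ± 0.16 is a lower bound. On the lower side, the adhesion receptor Adgrg6 measured 4.40, 4.93 and 4.27 against 7.50, 7.17 and 7.12 (-2.73 ± 0.26). Sh2d1b1, an adaptor of SLAM receptors, differed by -2.47 ± 0.21, the kelch protein Klhl41 by -2.35 ± 0.18, the phosphatase Ptpn3 by -2.07 ± 0.23 and Ifitm6 by -2.50 ± 0.20. Gp2, a receptor for bacterial fimbriae on M cells, measured 3.57, 3.96 and 5.40 against 6.74, 6.80 and 8.03 (-2.88 ± 0.65, adjusted p = 0.00855). Its level was highest in experiment 6 in both cell types, and the differences within experiments were -3.17, -2.84 and -2.63. The call of Gp2 was lost without replicate 4 of the CD103+CD11b- cells (adjusted p = 0.0607) or replicate 6 of the CD103+CD11b+ cells (0.0594).

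The CD103-CD11b+ cells of the same experiments mostly lay on the side of the CD103+CD11b+ cells. Their mean was nearer to CD103+CD11b+ than to CD103+CD11b- cells for 433 of the 499 genes called higher and 261 of the 335 called lower. This is a description, since these arrays shared the experiments and no test was made. The same share over all genes tested was not computed. Of the 20 named genes with the largest difference each way, all 20 higher and 18 lower genes were of this kind. The exceptions on the lower side were Gp2, whose CD103-CD11b+ mean was 4.91, and Ptpn3, at 7.56. Il22ra2 reached 8.60 in CD103-CD11b+ cells, above both CD103+ subsets, and Zeb2 8.58. Flt3 averaged 6.69 and Itgae 7.44 there, below both CD103+ subsets.

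Most differences had the same sign in untreated cells. This held for 489 of the 499 genes called higher and 330 of the 335 called lower after DSS, whatever the size of the untreated difference. How many of all genes tested kept their sign was not computed. Whether the difference itself changed with DSS was tested as an interaction, the DSS difference minus the untreated one, and 0 of 14003 genes (0%) passed, while 676 (4.83%) had an unadjusted p under 0.05. The experiments were separate for each treatment, so experiment and DSS cannot be told apart. The lowest adjusted p in limma was 0.0979, shared by Mgl2 and Crisp3. Mgl2 measured 4.76, 4.36 and 4.25 in untreated CD103+CD11b- cells and 9.29, 9.77 and 9.75 in untreated CD103+CD11b+ cells. The untreated gap was -5.15, and the interaction 1.73 ± 0.30. Crisp3, a secreted cysteine-rich protein, measured 3.45, 3.06 and 3.04 against 4.75, 4.79 and 5.40 after DSS, and 3.41, 3.25 and 2.85 against 2.67, 3.13 and 3.54 in untreated cells. Its difference of -1.80 ± 0.21 after DSS is a lower bound in size, because the CD103+CD11b- mean lay under the filter level. The untreated difference was 0.06, and both untreated means lay under that level too, so this value compares levels near the floor. The 3 DSS CD103+CD11b+ values met the filter by themselves. The interaction of Crisp3 rests on that group, which also brought the gene into the test, and is no separate support. In CD103-CD11b+ cells after DSS Crisp3 averaged 2.84. Moderating the spread by level and robustly called these 2 genes (adjusted p = 0.0362), and no other setting run for the interaction did.

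The next in order were Pdia5, Sirpa and Pld3. Pdia5, a protein disulfide isomerase of the endoplasmic reticulum, measured 5.32, 5.76 and 5.65 against 4.16, 4.44 and 4.26 after DSS, a difference of 1.30 ± 0.14, and 0.22 in untreated cells (interaction 1.07 ± 0.20, adjusted p = 0.168). For Sirpa the difference was -1.04 after DSS and -2.10 in untreated cells (interaction 1.06 ± 0.20, adjusted p = 0.174). Pld3, a lysosomal exonuclease, differed by -0.06 ± 0.14 after DSS and by -1.07 in untreated cells (interaction 1.01 ± 0.20, adjusted p = 0.174).

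**Figure D4:**
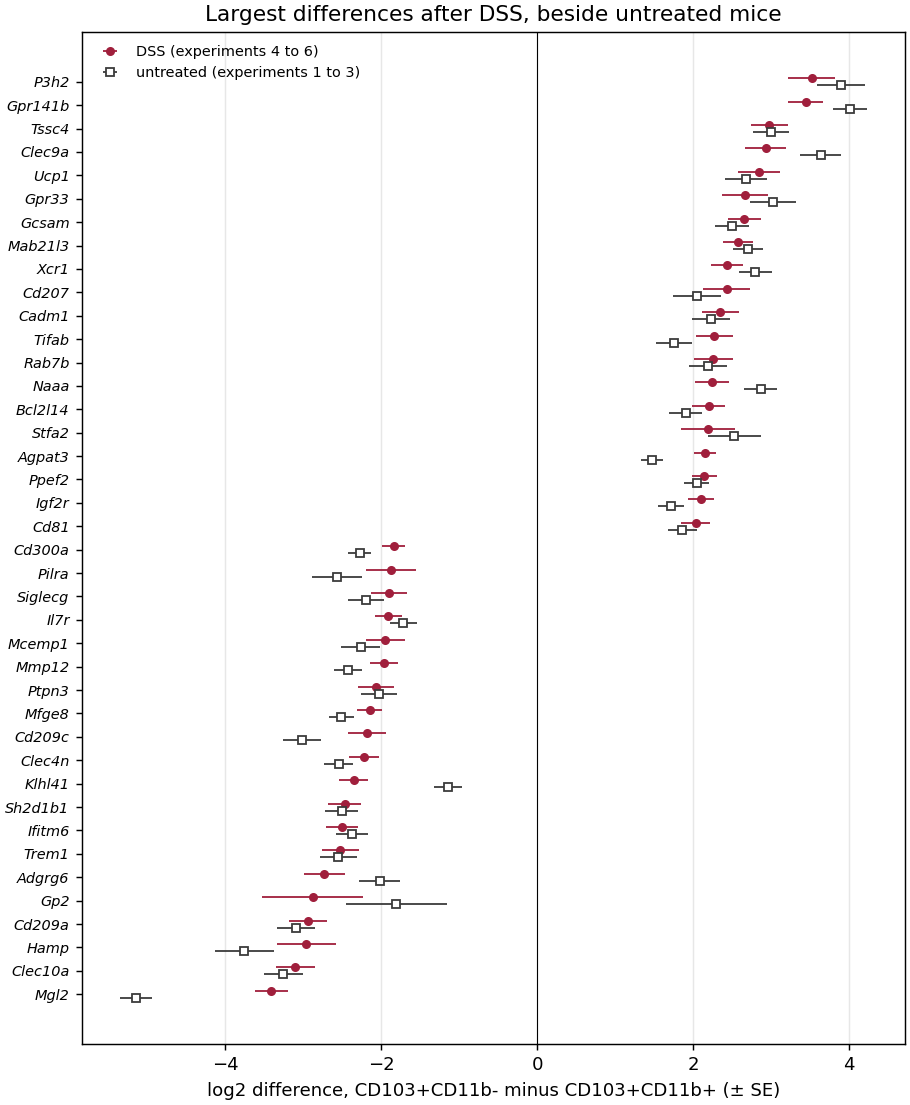
Log2 difference, CD103+CD11b- minus CD103+CD11b+, with its SE for the 20 named genes with the largest difference each way after DSS (red circles) and in untreated mice (open squares), 3 arrays a group. All 40 keep their side of 0 in untreated cells; Mgl2 has the widest gap between the 2 symbols, -3.41 against -5.15.

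Markers of other cells were measured in the same arrays. Of the 8 defining cDC1 markers 7 were higher in CD103+CD11b- cells, and of the 8 cDC2 markers 7 were lower. Itgam, counted among those lower, encodes CD11b, by which the cells were sorted, so its call is no separate support. Tlr3 and Wdfy4, counted among those higher, lost the call with any 1 array left out. Among 8 macrophage markers 2 were lower, C1qa at -0.69 ± 0.18 (adjusted p = 0.0196) and Csf1r at -0.66 ± 0.17 (adjusted p = 0.0227), and the other 6 were not called. C1qa lost its call without replicate 5 or 6 of either cell type (adjusted p from 0.0573 to 0.0874). Csf1r lost it without any array but replicate 6 of the CD103+CD11b- cells (0.0565 to 0.117). The macrophage list averaged 6.80 to 6.98 in the CD103+CD11b- arrays, 7.09 to 7.22 in the CD103+CD11b+ arrays and 7.74 to 8.02 in the CD103-CD11b+ arrays, and 3 of its 29 tested genes were lower and 1 higher (1 to 3 calls with 1 array left out). The monocyte list averaged 7.24 to 7.50 against 7.53 to 7.90, with 6 of 21 lower and 1 higher. Both lists therefore sat lower in CD103+CD11b- cells without overlap between arrays. The epithelial list and the list of T, NK and innate lymphoid cells, described below, did so as well. The part of macrophage and monocyte genes in the differences of lectins and paired receptors was not tested.

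Lists of epithelial, lymphoid, stromal and endothelial, neutrophil and plasmacytoid genes were compared in the same way. The epithelial list averaged 7.08 to 7.38 against 7.47 to 7.65, and 1 of 29 genes was called, Cdh1, which dendritic cells also express. Of the 5 defining epithelial markers 0 were called, with Krt8 at -0.10 ± 0.22 and Epcam at -0.39 ± 0.21. The list of T, NK and innate lymphoid cells averaged 5.98 to 6.09 against 6.19 to 6.31, with Cd7 and Il7r lower, Ctla4 higher and 0 of 4 tested defining markers called. The lists of B and plasma cells averaged 6.36 to 6.44 against 6.39 to 6.54, with 0 of 17 genes called. The stroma and endothelium list averaged 5.95 to 6.07 against 6.01 to 6.31, with 1 of 25 genes called lower. Of its 4 defining markers Pecam1 was called lower (-0.82 ± 0.15, adjusted p = 0.00175) and kept the call in every setting, while 3 were not called. Of 17 neutrophil genes tested, Trem1, Il1r2 and Il1f9 were called lower and Stfa2 higher. The neutrophil list averaged 5.01, 5.32 and 5.56 in CD103+CD11b- cells against 5.30, 5.63 and 5.85 in CD103+CD11b+ cells, lower in each of the 3 experiments with ranges that overlap, and its part in the results was not tested. S100a8 measured 4.63, 6.85 and 6.95 in CD103+CD11b- cells and 5.43, 6.35 and 6.87 in CD103+CD11b+ cells, and S100a9 measured 6.88, 8.24 and 8.54 against 6.68, 7.92 and 8.73. Experiment 4 was lowest for both genes in both populations, and neither was called (adjusted p = 0.981 and 0.967). Of plasmacytoid markers, Siglech differed by -0.03 ± 0.29, Bst2 by 0.11 ± 0.24 and Ccr9 by -0.83 ± 0.26, none of them called. Tcf4, a transcription factor of plasmacytoid cells, was called lower (-0.60 ± 0.14, adjusted p = 0.0142). Its call was lost on the 6 arrays alone (adjusted p = 0.0623), without replicate 5 of the CD103+CD11b- cells (0.0976) and without replicate 6 of the CD103+CD11b+ cells (0.0561).

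**Figure D5:**
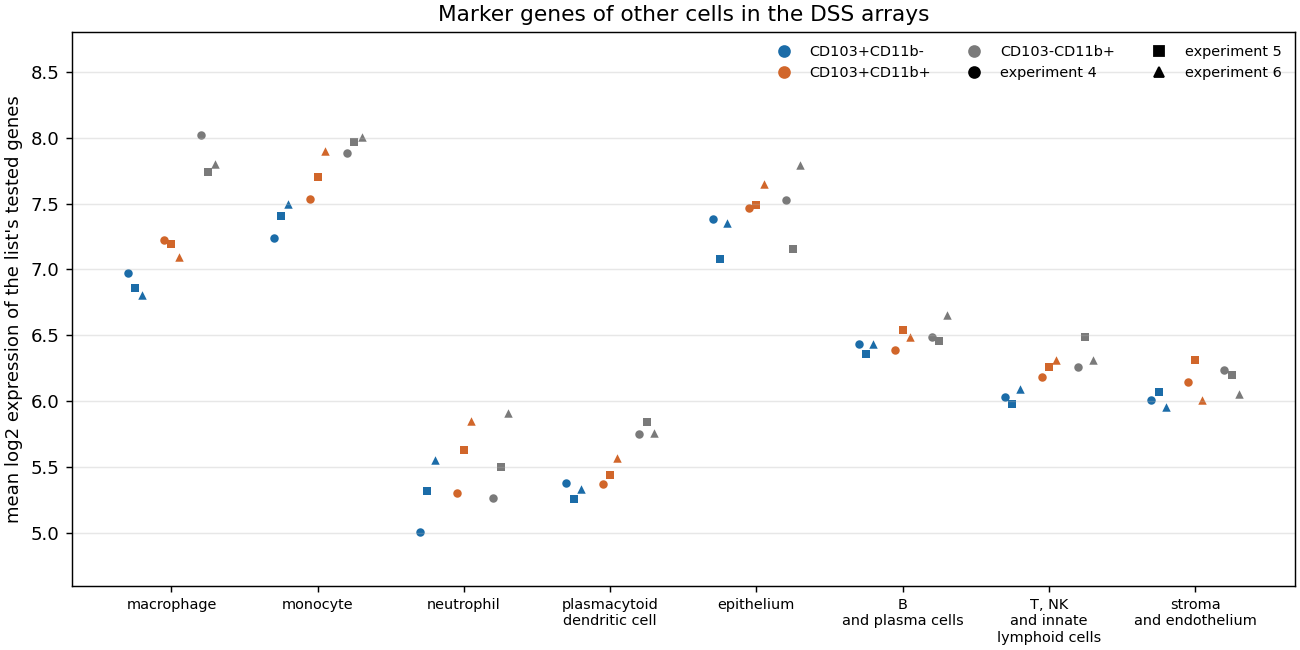
Mean log2 expression of the tested genes of 8 marker lists in each of the 9 DSS arrays; colours give the subset and symbols the experiment. The macrophage, monocyte, epithelial and T, NK and innate lymphoid points of CD103+CD11b- cells lie below those of CD103+CD11b+ cells. The neutrophil points of experiment 4 are the lowest in both populations.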

How the data were processed

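Expression was measured on Affymetrix arrays, 3 in each of 6 groups. The authors deposited a log2 value for each probe set on each array, computed with RMA (the submitters' processing notes name it), a method of background correction, quantile normalization and probe summary. Its version and a genome build are not given in the sources used here. Deposited values ran from 1.07 to 13.16. They carry no detection calls and no array batch besides the experiment number.

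Of 34760 probe sets, the 21640 with 1 gene symbol in the platform annotation were used (1321 had several and 11799 none), and 21553 of them matched RefSeq genes (GRCm38.p6). They stand for 19937 genes. A probe set was kept if it exceeded the 40th percentile of all values (3.51) in at least 3 of the 18 arrays, and the probe set with the highest mean stood for its gene, which left 14003 genes. No background was measured to set that level; a difference from a group mean under it is a lower bound.

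All 18 arrays were fitted in limma 3.58.1, under R 4.3.3, with a mean per group and empirical Bayes moderation. Tests were two-sided, with Benjamini-Hochberg adjustment over all genes tested. The code was tested on simulated data. The median SE of a difference was 0.166.

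The experiment number was taken to pair the cell types: deviations from the group means, correlated across genes, reached 0.114, 0.163 and 0.311 in the 3 same-number pairs and -0.185 to 0.027 in the 6 others. Deviations from a group mean cancel over the arrays of that group, so positive same-number values push the others down. The 6 others are therefore no separate support for the pairing. The fit with the number as a block was an alternative, as were the 6 arrays alone, with and without the block, no filter, a 60th percentile filter, the mean of a gene's probe sets, a further quantile normalization, a trended robust fit and leaving out each of the 6 arrays.

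The genes named are the sort genes; the 20 called genes with the largest difference each way whose groups do not overlap; in each list up to 8 called members each way, members called against the list's majority and defining markers; and the 5 genes of lowest interaction p. Symbols that are only model or clone names were counted, not named. There are 46 lists with 1159 genes, of which 995 were tested, 57 fell below the filter and 107 had no usable probe set. Members and lists were chosen with earlier results of these data known, so their counts are descriptions.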

Additional observations from a re-analysis of the deposited data

How the results depend on the processing

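Of the 191 named genes called, 0 changed sign in the 8 other fits or with any 1 of the 6 arrays left out. In every setting that tested them 139 were called, and 52 lost the call in at least 1. Ffar4 and Gpr82, counted among the 139, were tested in 13 of these 14 settings. Of the 40 not called, 19 changed sign in some setting and 1, Ccr9, gained a call. The count of 834 called genes was 810 without the filter, 847 with the mean of probe sets, 827 after another quantile normalization, 855 on the 6 arrays alone, 890 with the stricter filter and 898 with the trended robust fit. With the experiment number as a replicate block it was 950, of which 804 were among the 834, and 959 with the block on the 6 arrays alone. In the fit of 18 arrays, pairing through the block ended the call of 5 named genes, Eng, Fcer1g, Ly96, Nfkbie and Nod2, whose adjusted p became 0.0569, 0.0576, 0.0528, 0.0569 and 0.0661, called Ccr9 (0.0411), and changed no other named call. On the 6 arrays alone the block ended the call of Pfkp (0.0509) and called Cd9, Ffar2, Itgb2, Marchf1, Slc29a3, Tcf4 and Tk1, which the fit of those arrays without it had not. With 1 array left out the count ran from 596 to 676, with 337 to 432 genes higher and 243 to 266 lower; fewer arrays enter these fits. The interaction, which cannot be fitted on the 6 arrays alone, had 0 calls in each fit run for it except the trended robust one, with 2, Crisp3 and Mgl2. With 3 arrays a group, differences near the median SE of 0.166 could not be called.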

Other observations

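Genes called in the same direction often lay side by side in the genome order of the RefSeq table. Of 499 genes called higher in CD103+CD11b- cells, 103 (20.6%) had a neighbour among the tested genes that was also called higher, while 6.89% of all 13995 placed genes had such a neighbour. For the 335 genes called lower the numbers were 59 (17.6%) and 4.64%. The lectins Clec12a, Clec9a and Clec1a formed a run of 3 genes called higher, as did Ppef2, Naaa and Sdad1. Pilra, Pilrb1 and Pilrb2 formed a run of 3 called lower, and so did Ifitm1, Ifitm3 and Ifitm6. Related genes can share probes, and the part of shared probes was not tested. Sdad1 and Ifitm1 are named for their place in a run, chosen after the values were seen.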
